A study of Mus musculus with 23 samples.

Results

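The protein components of the mitochondrial ribosome were followed in liver RNA of mice that had inhaled particles. Members were taken by symbol alone, as every feature listed for an Mrpl gene (large subunit) or an Mrps gene (small subunit) followed by a number. This gave 76 features of 75 genes, 46 Mrpl and 29 Mrps, out of 18688 features of 16887 genes, and each gene was represented by its brightest feature. Liver of 23 female C57BL/6 mice was examined, 1 array per mouse. In the air group 8 mice breathed filtered air, in the CB group 8 mice inhaled carbon black (Printex 90), and in the DEP group 7 mice inhaled diesel exhaust particles (NIST 2975). Both particles were given at 20 mg/m3 for 90 min a day on 4 days, and the labels place the tissue 90 minutes after exposure in mice of 12-13 weeks. The methods of the study give a somewhat younger age and a shorter interval. All groups were handled in 3 exposure rounds, with each group present in each round. Each array carried liver RNA in the Cy5 channel and a commercial universal mouse reference RNA, a pool made from mouse cell lines, in the Cy3 channel, and the dyes were never exchanged. A log2 ratio of 0 therefore means as much signal from liver as from the reference pool, and any difference between the dyes for a given probe is part of that ratio.

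The mitochondrial ribosome translates the few messages of mitochondrial DNA, all of which code for subunits of the respiratory chain and ATP synthase. Its RNA parts come from mitochondrial DNA, whereas all of its proteins are encoded in the nucleus, made in the cytoplasm and imported. Many of these proteins, such as Mrpl3 or Mrps12, descend from bacterial ribosomal proteins and keep their numbers, while others, such as Mrpl55 or Mrps31, have no bacterial counterpart. The symbols do not follow the structure throughout: the products of Mrps30 and Mrps18a sit in the large subunit, and the product of Mrps36 is now known as a component of the alpha-ketoglutarate dehydrogenase complex. Liver is rich in mitochondria, and respiratory chain genes are among its strongly transcribed genes.

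Promoter sequences are shown first, because many members share short motifs in windows around their start sites. RefSeq promoter windows (GRCm38.p6, 250 bases before to 50 after the start of the gene) were found for 67 of the 75 members. No window was at hand for Mrpl4, Mrpl13, Mrpl15, Mrpl38, Mrpl54, Mrps28, Mrps34 and Mrps35. The windows were searched on both strands for CCGGAAG, a core bound by ETS factors such as GABP, for GCATGCGC, the core of the NRF1 motif, and for AAGATGGC, the core of the YY1 motif. The letters AAG can be shared where CCGGAAG and AAGATGGC overlap. CCGGAAG was found in 25 of the 67 members (37.3%), beside 14.8% of the 13425 genes of the array with a window and 9.93% of all 27025 genes with one. AAGATGGC was found in 12 members (17.9%) and in 3.93% of the genes of the array. GCATGCGC was found in 8 members (11.9%) and in 4.59% of the genes of the array. At least 1 of the 3 motifs was present in 37 members (55.2%), beside 21.2% of the genes of the array. The share was 57.4% for 54 cytoplasmic ribosomal protein genes and 44.8% for 67 genes of oxidative phosphorylation. The 4 windows printed below belong to members at both ends of the order of liver over reference described next, with the matched letters in capitals. Mrps12 (chr7:28741772-28742071, minus strand) and Mrps31 (chr8:22411090-22411389, plus strand) had the highest ratios, and Mrpl33 (chr5:31613701-31614000, plus strand) and Mrpl3 (chr9:105053018-105053317, plus strand) the lowest.
Mrps12: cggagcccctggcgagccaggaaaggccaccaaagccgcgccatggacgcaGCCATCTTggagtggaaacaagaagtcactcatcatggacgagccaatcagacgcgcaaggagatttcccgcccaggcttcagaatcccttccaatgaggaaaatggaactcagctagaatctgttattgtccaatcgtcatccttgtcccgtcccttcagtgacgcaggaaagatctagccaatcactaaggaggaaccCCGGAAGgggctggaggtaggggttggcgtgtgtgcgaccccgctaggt
Mrps31: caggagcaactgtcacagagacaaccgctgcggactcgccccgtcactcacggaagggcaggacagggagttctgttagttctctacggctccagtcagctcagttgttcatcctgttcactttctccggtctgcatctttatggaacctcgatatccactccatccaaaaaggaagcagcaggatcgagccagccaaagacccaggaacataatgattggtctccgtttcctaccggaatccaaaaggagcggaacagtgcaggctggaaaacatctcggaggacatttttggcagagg
Mrpl33: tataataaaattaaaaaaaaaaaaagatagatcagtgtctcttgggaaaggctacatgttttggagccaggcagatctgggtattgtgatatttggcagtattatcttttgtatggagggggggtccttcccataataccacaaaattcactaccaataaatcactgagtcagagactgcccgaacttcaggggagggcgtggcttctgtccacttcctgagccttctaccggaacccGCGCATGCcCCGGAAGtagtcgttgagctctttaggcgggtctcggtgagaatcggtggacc
Mrpl3: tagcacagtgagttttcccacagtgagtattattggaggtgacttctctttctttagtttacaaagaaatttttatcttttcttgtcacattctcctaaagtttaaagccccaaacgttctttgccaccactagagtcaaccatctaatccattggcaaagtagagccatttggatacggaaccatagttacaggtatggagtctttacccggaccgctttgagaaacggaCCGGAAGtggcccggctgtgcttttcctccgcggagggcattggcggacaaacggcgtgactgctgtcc
In Mrpl33 the NRF1 and ETS motifs lay next to each other, 12 and 3 bases before the start, and in Mrpl3 the ETS motif lay 19 bases before it. In Mrps12 an ETS motif lay just after the start and a YY1 motif 199 bases before it. Mrps31 held none of these letters in its window. CCGGAAG was present in 32.1% of the 28 members with a window that were above the reference and in 37.5% of the 16 below it. AAGATGGC was present in 17.9% and 0% of them, and GCATGCGC in 7.14% and 12.5%. A match of letters is a description and was not tested as a binding site.

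Depth and quality were as follows. Median Cy5 signals ranged from 262 to 549 between arrays, and the deposited flags marked 13.8% to 41.9% of the Cy5 spots of an array as absent, that is, not above the background of negative control spots. All 9 hepatocyte markers measured were above the reference, with a median log2 ratio of 4.69, and 6 of them had saturated spots, so that the median may be a lower bound. Of the 75 members, 59 were present in Cy5 on all 23 arrays, and 1, Mrpl14, had a saturated Cy5 spot, on 1 array. Mrpl41 was flagged absent on all 23 arrays and Mrps18b on 22, Mrpl57 on 13 and Mrpl51 on 11. No level can be given for Mrpl41, a large subunit protein without a bacterial counterpart, whose Cy5 signal was 130 to 213 across the mice. The second feature of Mrpl40 gave a mean log2 ratio of -0.27 in the air group beside -0.44 for the brighter one. A feature listed for both Mrps25 and Nr2c2 was not counted as a member and its ratio of 0.69 in the air group stood beside -0.73 for the feature of Mrps25 alone.

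In livers of air-breathing mice the members did not stand at a common ratio to the reference. Their mean log2 ratios ran from -1.17 to 1.25 with a median of 0.10 and quartiles of -0.20 and 0.36. In whole liver RNA, fewer cells of a type and less RNA per cell cannot be told apart. By limma, 32 members were above the reference and 19 below it at an adjusted p under 0.05, while 24 passed in neither direction. Over all features 34.4% were above and 31.5% below. The split depended on how the dyes were balanced: with the lowess ratios deposited by the authors 17 members were above and 36 below, with a median of -0.10, beside 33.6% and 33.1% of all features. Members called in the same direction both ways numbered 16 above and 19 below. With median centring and with normexp background correction added, 15 members were above and 17 below under all 4 normalizations. These joint counts were not made over all features, so they describe the members only. Mrpl57, flagged absent in Cy5 on most arrays, is among the 32, the 16 and the 15 above, so its place there rests on dim spots. Mrpl10, Mrpl12, Mrpl20 and Mrps18a changed sides between the loess and the deposited ratios, so no direction is given for them. The Mrpl genes had a median of 0.15 and the Mrps genes of 0.04 by loess, and -0.10 and -0.06 by the deposited ratios, so that the order of the subunits depended on the normalization. By loess, members whose number falls within the bacterial series (up to 36 in the large and 21 in the small subunit) had a median of 0.05 and the rest 0.15.

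**Figure D1:**
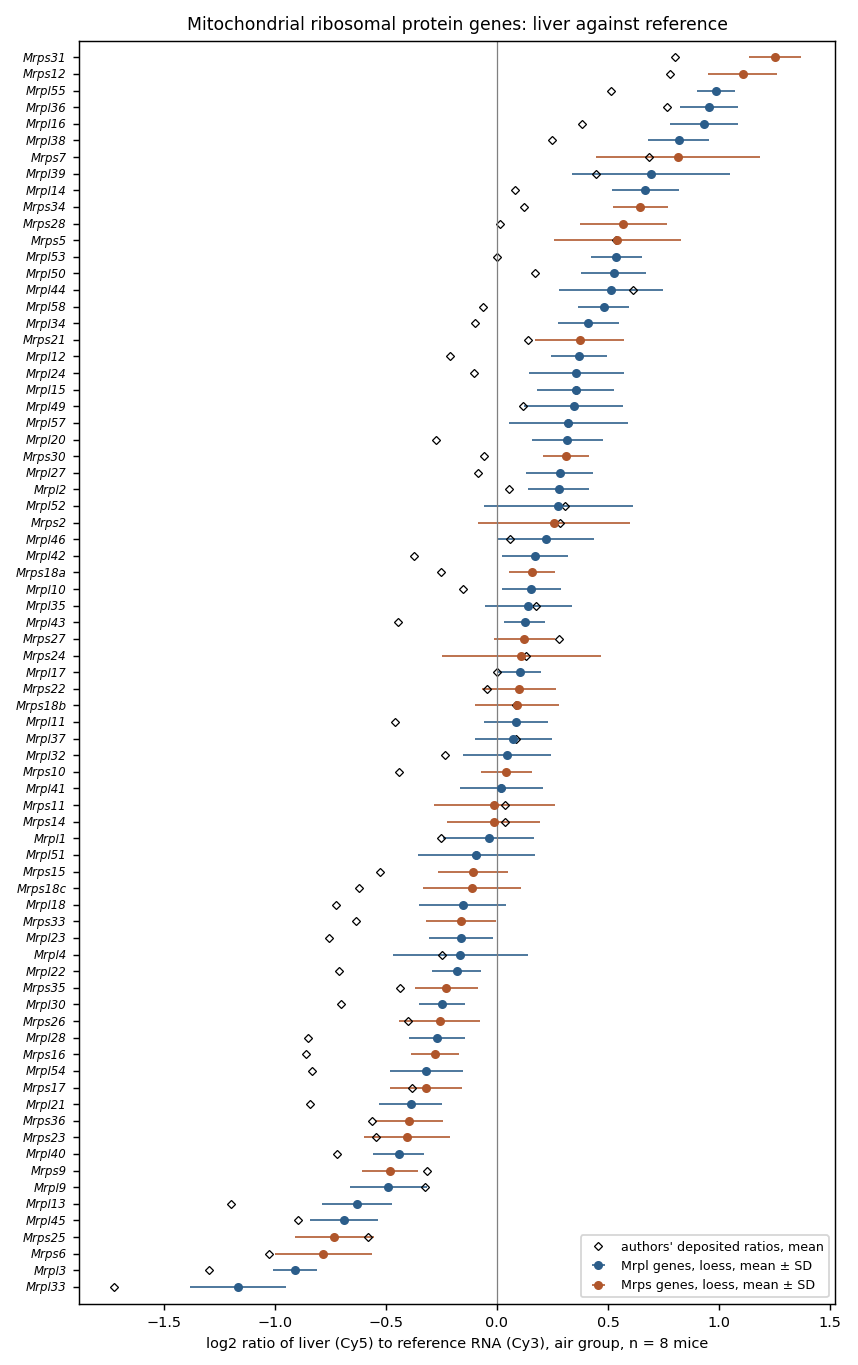
Mean log2 ratio of liver (Cy5) to reference RNA (Cy3) of each of the 75 members in the air group, with the SD over 8 mice as bars. Filled points are loess ratios, blue for Mrpl and brown for Mrps genes, and open diamonds are the means of the deposited ratios. Loess means run from Mrps31 (1.25) to Mrpl33 (-1.17), most diamonds lie to the left of the filled points, and 32 members were called above 0 by loess and 17 by the deposited ratios.

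At the upper end stood Mrps31 and Mrps12. Mrps31, a small subunit protein of the mitochondrion alone, had log2 ratios of 1.05, 1.28 and 1.39 (lowest, median and highest) in the air group, a mean of 1.25 ± 0.12 (SD, n = 8). Mrps12, the counterpart of the bacterial protein of the decoding centre, ranged from 0.82 through 1.14 to 1.28, with a mean of 1.11 ± 0.16 (SD, n = 8). Both were above the reference in every air mouse, and their ranges overlapped. Mrpl55, a mitochondrion-specific large subunit protein, had a mean of 0.98 ± 0.09 (SD, n = 8). Mrpl36, the counterpart of a small bacterial large subunit protein, had 0.95 ± 0.13, Mrpl16, a counterpart of bacterial L16, 0.93 ± 0.15 and Mrpl38 0.82 ± 0.14 (SD, n = 8 each). The ranges of each pair of neighbours in this order overlapped. By the deposited ratios the means were 0.80 for Mrps31, 0.78 for Mrps12, 0.51 for Mrpl55, 0.76 for Mrpl36, 0.38 for Mrpl16 and 0.25 for Mrpl38, all still above the reference.

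At the lower end Mrpl33, the counterpart of bacterial L33, had log2 ratios of -1.60, -1.13 and -0.84 (lowest, median and highest), a mean of -1.17 ± 0.22 (SD, n = 8). Mrpl3, the counterpart of a bacterial protein near the catalytic centre, had -1.06, -0.90 and -0.76, a mean of -0.91 ± 0.10 (SD, n = 8). No air mouse had either gene at or above the reference. Mrps6, the counterpart of bacterial S6, had a mean of -0.78 ± 0.22, Mrps25 of -0.73 ± 0.18 and Mrpl45 of -0.69 ± 0.15 (SD, n = 8 each). The product of Mrpl45 resembles the import protein Tim44 and lies where the nascent chain leaves the ribosome at the inner membrane. Mrpl13, the counterpart of bacterial L13, had a mean of -0.63 ± 0.16 (SD, n = 8). The adjusted p of these 6 members was at most 0.000151, that of Mrps25, and each was also below the reference by the deposited ratios. The same subunit therefore held members on both sides, as Mrps12 and Mrps6 of the small subunit and Mrpl16 and Mrpl3 of the large subunit did.

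Among the members, Mrps18a, Mrps18b and Mrps18c share a number. By loess Mrps18a had a mean log2 ratio of 0.16 ± 0.11 and Mrps18c of -0.11 ± 0.22 in the air group (SD, n = 8 each), and their ranges, 0.01 to 0.31 and -0.36 to 0.34, overlapped. By the deposited ratios their means were -0.25 and -0.62. Mrps18b was absent in Cy5 in all 8 air mice. The 3 products are related to bacterial S18, although that of Mrps18a sits in the large subunit. The array gave no ratio for Mrps18b to set beside the others. Mrpl12, whose product forms the stalk of the large subunit and is known to bind mitochondrial RNA polymerase, had a mean of 0.37 ± 0.13 (SD, n = 8) by loess and of -0.21 by the deposited ratios.

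Set beside the ribosome of the cytoplasm and the respiratory chain that it serves, the mitochondrial ribosome lay between both. The 66 cytoplasmic ribosomal protein genes had a median log2 ratio of -0.89, with 64 below the reference, and the 81 genes of oxidative phosphorylation had a median of 0.91, with 68 above and 5 below. By the deposited ratios the medians were -1.34, 0.39 and, for the members, -0.10, the same order. With median centring they were -0.541, 1.07 and 0.0528, again in that order. Saturated Cy5 spots touched 44 and 43 of the genes of these lists but 1 member, so that the ratios of the brighter lists are inexact in part. Rps18 and Rps16, saturated in Cy5 on all 23 arrays, had the same ratio of -0.6106. Ratios of such genes, which are among the 64, may be no measure of their level. The lists were described by their counts and medians, and no test of the difference between them was made.

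**Figure D2:**
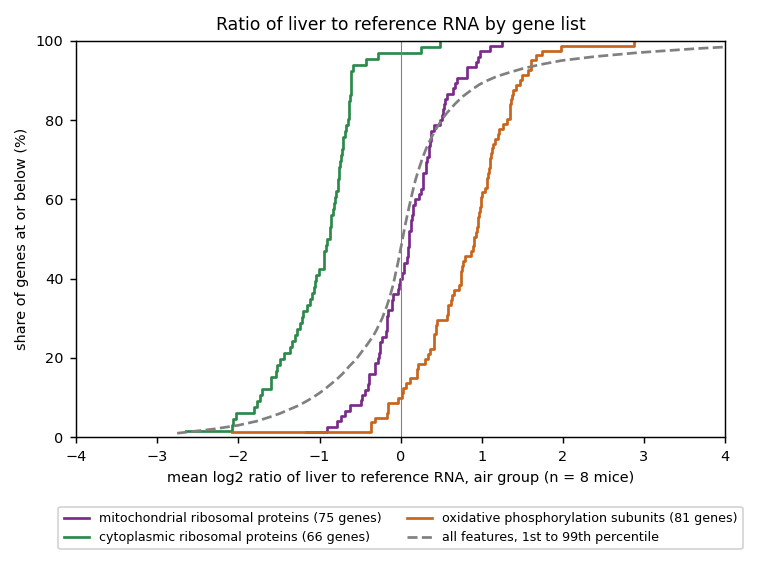
Share of genes (%) at or below each mean log2 ratio of liver to reference RNA in the air group (8 mice), by loess, for the members, 2 comparison lists and all features. The curve of the members (median 0.10, or -0.10 by the deposited ratios) runs between the cytoplasmic ribosomal proteins (-0.89) and the subunits of oxidative phosphorylation (0.91).

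The main question was whether inhaled particles changed these genes in the liver. No member passed the adjusted p of 0.05 after CB (0 of 75, and 0% of all features), after DEP (0 of 75, 0% of all features), between CB and DEP (0 of 75, 0%) or for the mean of both particle groups against air (0 of 75, 0%). At limma's unadjusted p under 0.05, 5 members passed after CB (beside 5.94% of all features), 3 higher and 2 lower. After DEP 2 members passed, 1 each way, beside 4.82% of all features. Between CB and DEP 2 passed, beside 3.44%, and for both particle groups together 4 passed, 2 each way, beside 6.04%. By loess these counts lay near the background of the array. With median centring 32 members passed the unadjusted threshold after CB, beside 23.5% of all features, and 16 for both particle groups, beside 16.2%. The smallest adjusted p was 0.647 after CB, 0.997 after DEP and 0.718 for both together. By loess, in no member did the mice of either particle group lie wholly above or below the air mice. No such count was made over all features, so this is a description only. No difference exceeded 1.5-fold by loess, beside 0.583% of all features after CB and 0.658% after DEP.

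The differences were small as well as uncalled. After CB the log2 differences of the members ran from -0.34 to 0.44 with a median of 0.02, beside 0.00064 over all features, and 42 of 75 were higher. After DEP they ran from -0.27 to 0.38 with a median of 0.03, and 46 of 75 were higher, but with median centring in place of loess the medians were -0.282 after CB and -0.063 after DEP, while all features shifted by -0.105 and -0.0426. The median half-width of the 95% intervals was 0.207 after CB and 0.214 after DEP on the log2 scale. They lay wholly within a 1.5-fold change for 71 members after CB and for 72 after DEP. The members whose interval reached further after CB were Mrpl22, Mrpl24, Mrps18b and Mrps25, and after DEP Mrpl22, Mrps18b and Mrps25, named here for their wide intervals. Within the second exposure round alone the median of the members was -0.0352 after CB and -0.00304 after DEP, and within the last round, where CB had 1 mouse, it was 0.019 and 0.0864. With exposure round as a block the medians were 0.00426 and 0.0364. The first round held too few mice for a value.

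**Figure D3:**
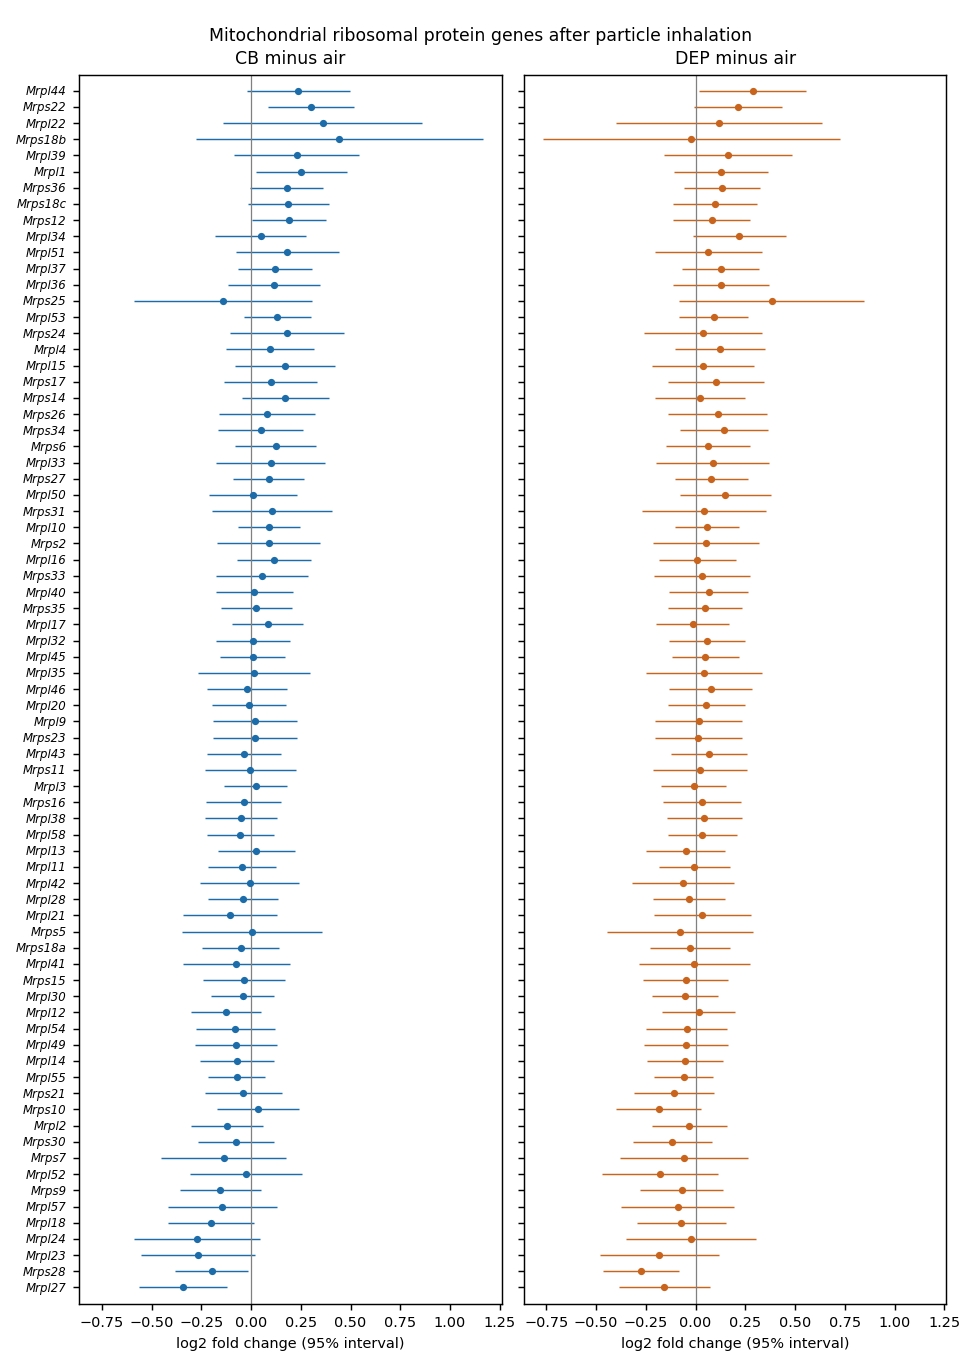
Log2 fold change of each of the 75 members against air, with its unadjusted 95% interval from limma, after CB (left, 8 mice) and DEP (right, 7 mice), ordered by the mean of both. The intervals of all but 5 members after CB and 2 after DEP cross 0, no member passed at an adjusted p under 0.05 (smallest 0.647 after CB and 0.997 after DEP), and the widest belong to Mrps18b, Mrps25 and Mrpl22.

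Mrps28, a small subunit protein, had the smallest p after DEP. Its log2 ratios were 0.15, 0.59 and 0.83 in the air group (lowest, median and highest), 0.27, 0.35 and 0.56 after CB and 0.05, 0.34 and 0.53 after DEP. Most air mice lay above most particle-exposed mice, but the groups overlapped, and 1 air mouse (mouse 54, 0.15) lay below every CB mouse. The difference was -0.20 ± 0.09 (SE) after CB (unadjusted p = 0.0362, adjusted p = 0.838) and -0.27 ± 0.09 after DEP (unadjusted p = 0.00691, adjusted p = 0.997). Both differences stayed below 0 with exposure round as a block and when each mouse was left out in turn (-0.258 to -0.16 after CB, -0.333 to -0.233 after DEP). They were -0.124 and -0.303 in the second round and -0.305 and -0.276 in the last, where the CB value is that of 1 mouse.

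Mrpl27, the counterpart of bacterial L27 at the peptidyl transferase centre, had the smallest p after CB. Its log2 ratios were 0.11, 0.27 and 0.57 in the air group, -0.23, -0.03 and 0.16 after CB and -0.37, 0.23 and 0.47 after DEP. The CB mice lay below most air mice, while the DEP mice covered the range of both. The difference from air was -0.34 ± 0.11 (SE) after CB (unadjusted p = 0.00395, adjusted p = 0.647) and -0.16 ± 0.11 after DEP (adjusted p = 0.997), and between CB and DEP it was -0.18 ± 0.11 (adjusted p = 1). After CB it stayed between -0.372 and -0.299 when each mouse was left out and was -0.297 in the second round alone and -0.175 in the last, with its 1 CB mouse. With median centring in place of loess it was -0.676 (adjusted p = 0.0189), where all features shifted by -0.105.

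On the other side, Mrps22, a mitochondrion-specific small subunit protein, had log2 ratios of -0.15, 0.05 and 0.31 in the air group, 0.06, 0.41 and 0.71 after CB and 0.03, 0.30 and 0.58 after DEP. The particle-exposed mice reached higher than the air mice, and the groups overlapped. The difference was 0.30 ± 0.10 (SE) after CB (unadjusted p = 0.00793, adjusted p = 0.72) and 0.21 ± 0.11 after DEP (adjusted p = 0.997). It was 0.323 after CB within the second round, -0.0602 within the last, where CB had 1 mouse, and -0.0101 with median centring, so that its direction was not the same under every setting. Mrpl44, whose product has a ribonuclease III fold, had log2 ratios of 0.12, 0.51 and 0.87 in the air group, 0.37, 0.77 and 0.95 after CB and 0.34, 0.84 and 1.18 after DEP. The difference was 0.24 ± 0.13 after CB (adjusted p = 0.86) and 0.29 ± 0.13 after DEP (unadjusted p = 0.037, adjusted p = 0.997). The values were 0.112 and 0.261 in the second round and 0.471 and 0.321 in the last, again with 1 CB mouse. With median centring they were 0.0365 after CB and 0.174 after DEP.

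Other members named for a small p were Mrpl1, Mrps12, Mrps36 and Mrpl34. Mrpl1, the counterpart of the bacterial protein of the mobile L1 stalk, differed by 0.25 ± 0.11 (SE) after CB (unadjusted p = 0.0313) and by 0.13 ± 0.11 after DEP. Mrps12 differed by 0.19 ± 0.09 after CB (unadjusted p = 0.0467) and by 0.08 ± 0.09 after DEP. Mrps36, the gene of the dehydrogenase component, differed by 0.18 ± 0.09 after CB and by 0.13 ± 0.09 after DEP. Mrpl34, the counterpart of bacterial L34, differed by 0.05 ± 0.11 after CB and by 0.22 ± 0.11 after DEP. The adjusted p of these 4 members was at least 0.838, and all 4 were lower after CB with median centring (-0.0547, -0.136, -0.12 and -0.271). Mrpl12 differed by -0.13 ± 0.09 after CB and 0.02 ± 0.09 after DEP, and Mrps18a and Mrps18c by -0.05 ± 0.09 and 0.19 ± 0.10 after CB.

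**Figure D4:**
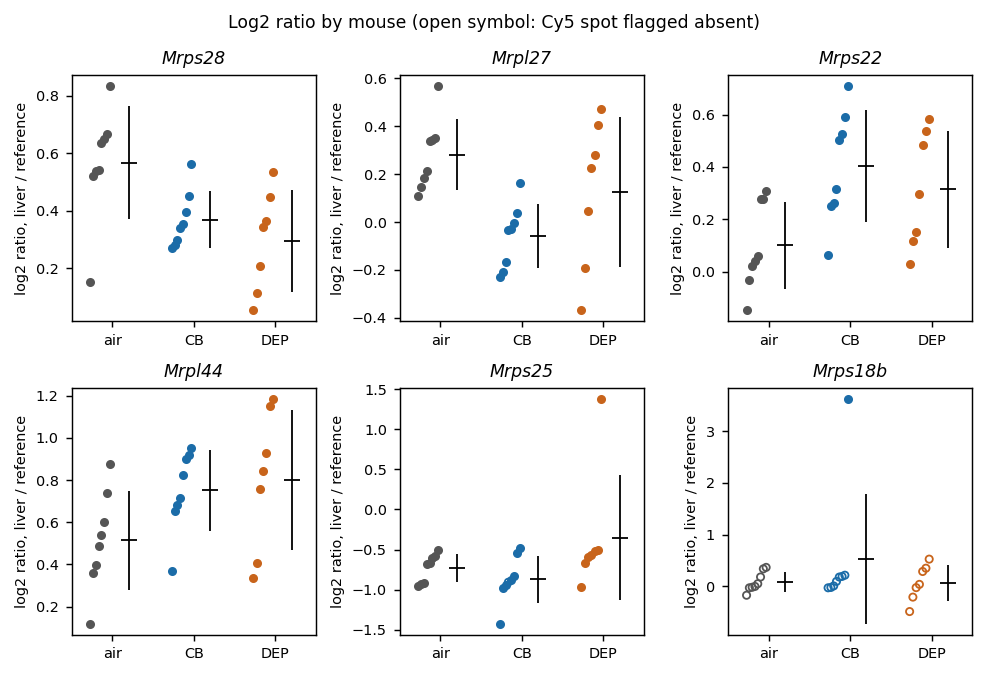
Log2 ratio of liver to reference RNA in each mouse (points) for 6 members in the air (8), CB (8) and DEP (7) groups, with the mean and SD as black bars and open symbols where the Cy5 spot was flagged absent. The upper row and Mrpl44 show overlapping groups, whereas in Mrps25 and Mrps18b 1 mouse each, at 1.38 and 3.62, stands apart from its group.

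Some of the largest differences came from 1 mouse each. Mrps25, a small subunit protein specific to mitochondria, had log2 ratios of -0.96, -0.67 and -0.51 in the air group, -1.42, -0.89 and -0.48 after CB and -0.97, -0.57 and 1.38 after DEP. The value of 1.38 was that of DEP mouse 835435, while the other DEP mice lay between -0.972 and -0.509, within reach of the air group. The difference of 0.38 ± 0.23 (SE) after DEP (adjusted p = 0.997) was 0.0939 without that mouse, and that between CB and DEP, -0.52 ± 0.23 (unadjusted p = 0.0289, adjusted p = 1), was -0.234. Mrpl22, chosen after its values were seen, is the counterpart of a bacterial protein that lines the exit tunnel. It had log2 ratios of -0.32, -0.12 and 2.31 after CB beside -0.39, -0.17 and -0.06 in the air group, and the highest was CB mouse 835052 with a Cy5 signal of 28977.5. The difference of 0.36 ± 0.24 after CB (adjusted p = 0.888) was 0.0568 without that mouse. In Mrps18b, 1 CB mouse (mouse 446) had a present Cy5 spot, with a signal of 3568.5 and a log2 ratio of 3.62, while the spot was flagged absent in the other CB mice, in all 8 air mice and in all 7 DEP mice. The difference of 0.44 ± 0.35 after CB (adjusted p = 0.898) was 0.00195 without mouse 446. It was 0.143 with the runs of array serial numbers, described below, as a block. With 1 measured spot in the CB group, no bound on a fold can be set. Mrps10, the counterpart of bacterial S10, differed between CB and DEP by 0.22 ± 0.10 (unadjusted p = 0.0446, adjusted p = 1) and by 0.13 without CB mouse 835436. Whether these values belong to the mice or to the arrays was not tested.

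The members also moved together to a degree from mouse to mouse. After the group means were removed, the correlation between pairs of members across the 23 mice had a median of 0.15, with 69.3% of the 2775 pairs above 0, beside 0.004 over all features. It was 0.52 among the cytoplasmic ribosomal proteins and 0.19 among the subunits of oxidative phosphorylation. The points share an array and a normalization, and the median for the members was 0.0852 with the deposited ratios. The residual SD of a member was 0.19 at the median, beside 0.24 over all features. Taken as the median deviation of the 75 members from their means over all mice, the air mice lay between -0.11 and 0.12, the CB mice between -0.07 and 0.08 and the DEP mice between -0.12 and 0.19. The groups covered each other, and the highest mouse, DEP mouse 51 at 0.19, had 65 of 75 members above their own means.

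The common movement also went with the array serial numbers or the exposure rounds. The array serial numbers in the labels fall into 5 runs, read here from gaps between the numbers. The labels do not say that these runs are batches of printing or hybridization. The 5 mice on the first run (2 air, 1 CB and 2 DEP mice) were all of the last exposure round, so run and round cannot be told apart for them. Their median deviations were -0.118 to -0.0573, each below 0. In a model with the groups, 61 of the 75 members were lower on the first run than on the others. The median over the 75 members was -0.13, beside -0.03 over all features. The share of all features that were lower was not counted, so the 61 is a description only. None of the members passed for the first run at an adjusted p of 0.05, beside 0.0803% of all features lower and 0.0214% higher. At an unadjusted p under 0.05, 21 members (28%) were lower and 1 (1.33%) higher, beside 9.49% and 4.93% of all features. Across all 5 runs, 0 members passed an F test at an adjusted p of 0.05 (0.0589% of all features) with 9 at an unadjusted p under 0.05 (12%, beside 8.44% of all features), and across the exposure rounds 0 members passed (0% of all features) with 13 at an unadjusted p under 0.05 (17.3%, beside 6.28%). Without the mice of the first run, 0 members passed for the rounds, with 7 at an unadjusted p under 0.05 (9.33%, beside 10.3%). The groups were spread unequally over the runs, and the first run held 5 of the 7 mice of the last round. The other mice of that round, DEP mice 51 and 57, lay above 0, at 0.19 and 0.101. Without the 5 mice the median difference of the members was -0.018 after CB and 0.058 after DEP, and the median correlation between members was 0.0903.

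**Figure D5:**
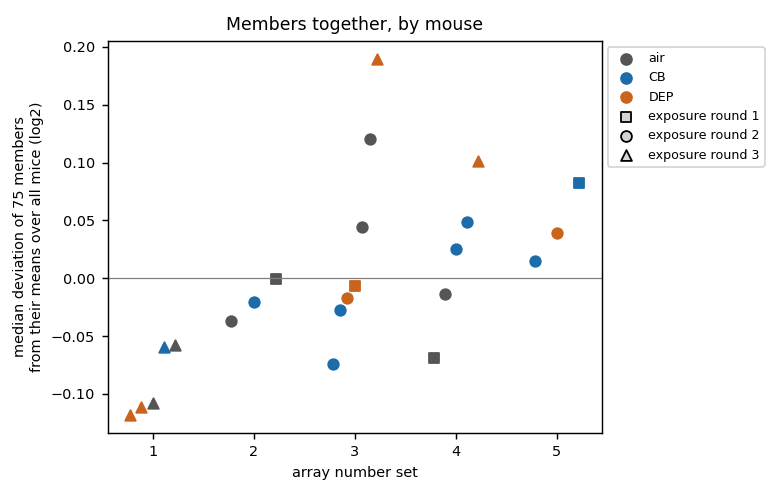
Median deviation (log2) of the 75 members from their means over all mice, 1 symbol per mouse, by run of array serial numbers, coloured by group and shaped by exposure round. All 5 mice of the first run lie below 0 (-0.118 to -0.0573), while the air, CB and DEP mice overlap.

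Genes that work with the mitochondrial ribosome were also uncalled after particles. No gene passed the adjusted p of 0.05 in either particle comparison among 10 translation factors, 4 mitochondrial ribosomal proteins under other names, 26 assembly and RNA-binding genes, 18 mitochondrial aminoacyl-tRNA synthetases, 9 genes of mitochondrial DNA transcription and maintenance and 9 nuclear regulators. Their median differences after CB were 0.04, -0.13, 0.04, 0.02, 0.07 and 0.01, and after DEP 0.05, -0.12, 0.05, 0.03, 0.05 and 0.02, in that order. Of the further ribosomal proteins, Dap3, a GTP-binding protein of the small subunit, differed by -0.23 ± 0.10 (SE) for both particle groups together (unadjusted p = 0.0284, adjusted p = 0.814), and Ptcd3 by -0.27 ± 0.13 with its Cy5 spot absent on 20 arrays. Fars2, the mitochondrial phenylalanyl-tRNA synthetase, differed by -0.27 ± 0.08 (unadjusted p = 0.00302, adjusted p = 0.693), and Gatb, of the glutaminyl-tRNA amidotransferase, by -0.18 ± 0.12. Among assembly genes Mettl17 differed by 0.15 ± 0.07 and Mrm1, absent on 20 arrays, by -0.25 ± 0.10. Of the translation factors, the release factor Mtrf1l differed by 0.15 ± 0.09 and the elongation factor Guf1 by 0.15 ± 0.09. In the last lists the values were 0.29 ± 0.16 for Tfb2m, a mitochondrial transcription factor absent on 10 arrays, 0.13 ± 0.09 for the helicase Twnk, absent on 11, 0.21 ± 0.10 for the nuclear receptor Esrra and -0.15 ± 0.11 for Nrf1, absent on 20, all uncalled. Against the reference, 10 of the 18 synthetases were above and 4 below, and 11 of the 26 assembly genes were above and 7 below, beside 34.4% and 31.5% of all features.

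The nuclear genes of the respiratory chain and ATP synthase, whose products join those made on the mitochondrial ribosome, had mostly lower values by loess in both particle groups. Of these 81 genes, 13 were higher after CB and 13 after DEP, with medians of -0.11 and -0.12, and 0 passed at an adjusted p of 0.05. At an unadjusted p under 0.05, 10 were lower after CB and 9 after DEP, beside 3.39% and 2.53% of all features. Other lists moved with them by sign only in part. Of 4 bile duct markers, 3 were higher after CB and 3 after DEP. Of 7 pancreatic acinar markers, 6 were lower after CB and 6 higher after DEP. Of 5 stellate cell markers, 3 were lower after CB and 4 higher after DEP. Of 6 markers each, 4 and 3 Kupffer cell, 3 and 4 lymphocyte and 5 and 3 endothelial markers were lower after CB and DEP. Of 9 hepatocyte markers, 7 had lower values after CB (median -0.26) and 8 after DEP (median -0.15), as did 4 and 3 of 4 erythroid markers (medians -0.30 and -0.25) and 39 and 50 of 66 cytoplasmic ribosomal protein genes (medians -0.03 and -0.08), with 0 past the adjusted threshold. The Cy5 signals of the hepatocyte markers were summed in multiples of the array median. This sum was 791 to 1141 in air, 799 to 1302 in CB and 834 to 1313 in DEP mice. As 6 of these 9 markers had saturated spots, the sums are capped and give no measure of hepatocyte content. Of the members, 42 and 46 of 75 were higher, with medians of 0.02 and 0.03. Saturated spots touched 43 of the 81 genes, 44 of the 66, 6 of the 9 hepatocyte markers, 2 of the 4 erythroid markers and 1 member. Alb, Fgb and Hba-a1 were saturated in Cy5 on all 23 arrays, so their differences may be no measure of their level. The part of saturation or of cell makeup in the difference between the lists was not tested.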

How the data were processed

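Liver RNA of 23 mice was measured on 2-colour Agilent oligonucleotide arrays. The authors deposited linear intensity values for Cy5 and Cy3 without background subtraction, flags for spots below the negative controls, and lowess-normalized log2 ratios (R 2.4.1 per the submitters' processing notes), identical in both kinds of file. The labels and the methods of the study name different RNA kits. Here log2 ratios were computed anew from the deposited intensities with array-wise loess. Of 22575 features, 18688 listed a gene (30 of them several), and these were fitted with limma 3.58.1 in R 4.3.3, with the 3 groups in 1 model and Benjamini-Hochberg adjustment over all features at 0.05. The liver to reference comparison tests the air group against 0. Members, lists and named genes were chosen with earlier results of these data known. Named were the 6 members with the smallest p after CB, after DEP and for both (3 between CB and DEP), any member past the threshold, the 6 highest and 6 lowest ratios, members that share a number, Mrpl12, members absent on every array and, after its values were seen, Mrpl22. For other lists the 2 genes with the smallest p for both particles were named. Alternatives were the deposited ratios, median centring, the Cy5 signal alone, normexp (offset 50), a filter on dim features, saturated or absent spots as missing, averaged features per gene, exposure round, array run or exposure day as a block, single rounds, only the groups compared, array weights, a threshold of 0.1, and each mouse left out. Leaving out the first array run or the members absent on most arrays was added after seeing the data. The fit was tested on simulated data. The number of arrays limits the precision.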

Additional observations from a re-analysis of the deposited data

Results flagged for a closer look

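Among the 78 sets of values examined for a mouse far from the rest of its group (26 named members in 3 groups), 10 held such a mouse. Chance gives about 1 in 20 of such sets, but Mrpl22 was named for such a mouse and Mrps25 and Mrps10 for p-values that rest on one, so the count is a description. Above their groups lay Mrps18b in CB mouse 446 (3.62, the others at most 0.215), Mrpl22 in CB mouse 835052 (2.31, the others at most 0.172) and in DEP mouse 56 (0.28, the others at most -0.0274), Mrps25 in DEP mouse 835435 (1.38, the others at most -0.509) and Mrps10 in CB mouse 835436 (0.704, the others at most 0.127). Below their groups lay Mrpl13 in air mouse 443 (-0.973), Mrpl45 in DEP mouse 835434 (-0.911), Mrps18a in CB mouse 835436 (-0.404), Mrps28 in air mouse 54 (0.151) and Mrps31 in DEP mouse 835435 (0.206, where both channels were flagged absent). Mice 835434, 835435 and 835436, on arrays of the first run, held 5 of the 10. The deposited ratios of the high values were 3.44, 1.66, -0.223, 1.16 and 0.734 in the order given. Without the mouse, Mrps10 differed by -0.0567 after CB in place of 0.03, and Mrps31 by 0.225 after DEP in place of 0.04.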

How the results depend on the processing

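The count of members past the threshold was 0 in every particle comparison under the alternatives run and when each mouse was left out (0 to 0), with 1 exception: with median centring Mrpl27 passed after CB (1 member). With median centring the median of the members was -0.282 after CB, -0.175 between CB and DEP and -0.164 for both particles, where all features shifted by -0.105, -0.0686 and -0.0708. Against the reference, the deposited ratios gave 17 members above, 36 below and a median of -0.0979. Within the last exposure round alone, with 2 air mice, the median was 0.0947. Leaving out each mouse gave 30 to 32 above and 19 to 21 below, with medians of 0.0713 to 0.12. The medians then ran from -0.00876 to 0.0295 after CB, from -0.00926 to 0.0494 after DEP, from -0.0367 to 0.0265 between CB and DEP and from 0.00561 to 0.0431 for both. Of 25 fold changes of named members larger than their standard error, 15 changed sign in at least 1 alternative. No paired analysis was possible because no replicate (mouse) number occurs in more than 1 group, and exposure round and day were fitted as blocks instead. Dim spots limit Mrpl41, Mrps18b, Mrpl57 and Mrpl51, which had no reliable Cy5 signal on 11 or more arrays.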
